A study of Homo sapiens with 16 samples.

Results

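The insulin-like growth factor (IGF) system of LN229 cells was followed through 10 genes, which were 6 genes for IGF-binding proteins (IGFBP2 to IGFBP7), the receptor genes IGF1R and IGF2R, and the insulin receptor substrate genes IRS1 and IRS2. They were picked by name, by looking up their Entrez identifiers in both deposited tables, and all 10 were listed in both, among 13559 genes in the first table and 14024 in the second. LN229 is an established human glioblastoma line, the labels name no transgene in it, and every library came from this 1 line. In the first experiment untreated cells were kept in regular culture or in ischemic culture. Regular culture was full medium with serum in room air with added CO2, and ischemic culture combined hypoxia with a medium low in glucose, glutamine and serum. In the second experiment each culture received DMSO (the solvent control), VX745, an inhibitor of the kinase p38α, or MK25, an inhibitor of MK2, a kinase that p38 activates. Each of the 8 groups had 2 libraries, and the labels give neither the concentration of an inhibitor nor how long the cells stayed in each culture before RNA was taken. The study's methods list MK25 at a higher concentration than VX745. The study's methods describe its work on cultured cells in general as coming from independent experiments, but neither they nor the labels say whether the libraries of a group came from separate cultures. The p-values therefore rest on the spread between libraries, which may be technical. In the tests the spread of each gene was also drawn toward that of other genes, so a widely spread pair can receive a small p-value.

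IGF1 and IGF2 are secreted growth factors that signal through IGF1R, a receptor tyrosine kinase. The active receptor phosphorylates the docking proteins IRS1 and IRS2, which recruit phosphoinositide 3-kinase and so switch on AKT. IGF-binding proteins are secreted carriers that hold the ligands and either shield them from the receptor or store them near it, and secreted proteases such as PAPPA and PAPPA2 release the ligands again. IGF2R is not a signaling receptor for growth, since it takes up IGF2 for breakdown and carries lysosomal enzymes tagged with mannose 6-phosphate. In gliomas the system is known for supporting growth and survival.

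Values are log2 CPM as deposited, where CPM is the usual read count scaled to library depth, so a difference of 1 is a 2-fold change. The libraries held 20122017 to 37562668 reads on listed genes, and the 10 genes had between 69 reads (lowest library of IGFBP2) and 17694 reads (highest library of IGFBP3). Of the markers of glial and neural stem cells, VIM (11.1 to 12.8), NES (8.40 to 9.90) and CD44 (9.57 to 9.98) were high in every library on the log2 CPM scale. EGFR (5.81 to 7.11) and S100B (4.54 to 5.47) were lower than these, and SOX2 had the widest span, from 3.13 to 6.48. OLIG2 (0.94 to 3.09) and GFAP (−0.36 to 1.06), the astrocyte filament gene, were low. PTPRC, PECAM1, EPCAM, RBFOX3 and MOG, which mark leukocytes, endothelium, epithelium, neurons and oligodendrocytes, were not among the listed genes. In these bulk samples, fewer cells that hold an mRNA and less of it per cell cannot be told apart.

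The question of the first comparison was how ischemic culture alters expression in LN229 cells. Among the binding proteins IGFBP3 rose by far the most of these genes in both experiments, IGFBP5 and IGFBP2 rose, IGFBP4 fell, and IGFBP7 kept nearly the same level in untreated cells. Both receptor genes rose by less than 2-fold. The substrate genes parted, since IRS2 rose and IRS1 fell. A gene was said to rise or fall when its Benjamini-Hochberg adjusted p from limma was under 0.05, and it was called when its change was also at least 2-fold (at least 1.5-fold for an inhibitor). In untreated cells 9 of the 10 genes passed the adjusted p, beside 70.4% of all genes tested, with 7 higher (35.2% of all genes) and 2 lower (35.2%). Of the 10 genes 4 were called, beside 20.4% of all genes tested. The median log2 fold change of the 10 genes was 0.91, while that of all genes was −0.01. With DMSO all 10 genes passed the adjusted p, beside 69.6% of all genes, with 8 higher (34.4% of all genes) and 2 lower (35.2%), and 4 were called, beside 17.1%. There the median log2 fold change was 0.72 for the 10 genes and −0.01 for all genes.

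IGFBP3, which encodes the main IGF carrier of blood serum, stood at 2.63 and 2.47 log2 CPM in the regular libraries of untreated cells and at 9.32 and 9.20 in the ischemic ones. Every ischemic library was far above every regular library. The log2 fold change was 6.71 (SE 0.08, adjusted p = 6.03e-14), a 105-fold rise. With DMSO the values were 4.24 and 4.29 log2 CPM in regular culture and 9.08 and 9.02 in ischemic culture. The ischemic levels were thus close to those of untreated cells, while the regular levels were above them, although the tables were normalized separately and the experiments share no library. The log2 fold change with DMSO was 4.78 (SE 0.06, adjusted p = 1.26e-19), a 27.5-fold rise.

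The 250 bases before the annotated start of IGFBP3 are shown because this gene had the largest change of the 10. They lie at chr7:45921273-45921522 on the minus strand (RefSeq, GRCh38.p14), upstream of the gene at chr7:45912245-45921272, and are written 5′ to 3′ with each match to the core of the hypoxia response element in capitals. The core was searched as ACGTG or GCGTG on both strands, so CACGC marks a match on the other strand.
IGFBP3: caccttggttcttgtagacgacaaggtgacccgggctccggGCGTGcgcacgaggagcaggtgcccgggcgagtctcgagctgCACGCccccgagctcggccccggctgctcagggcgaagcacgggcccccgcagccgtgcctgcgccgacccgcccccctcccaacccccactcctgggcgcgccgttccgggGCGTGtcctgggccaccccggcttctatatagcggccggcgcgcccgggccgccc
The 3 matches begin 209, 167 and 55 bases before the start. At least 3 matches were found in 7.76% of 35116 promoter windows of this length, whose median share of G and C was 58%, beside 76% in this one. A match is a description of letters, and whether any factor bound there was not tested.

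**Figure D1:**
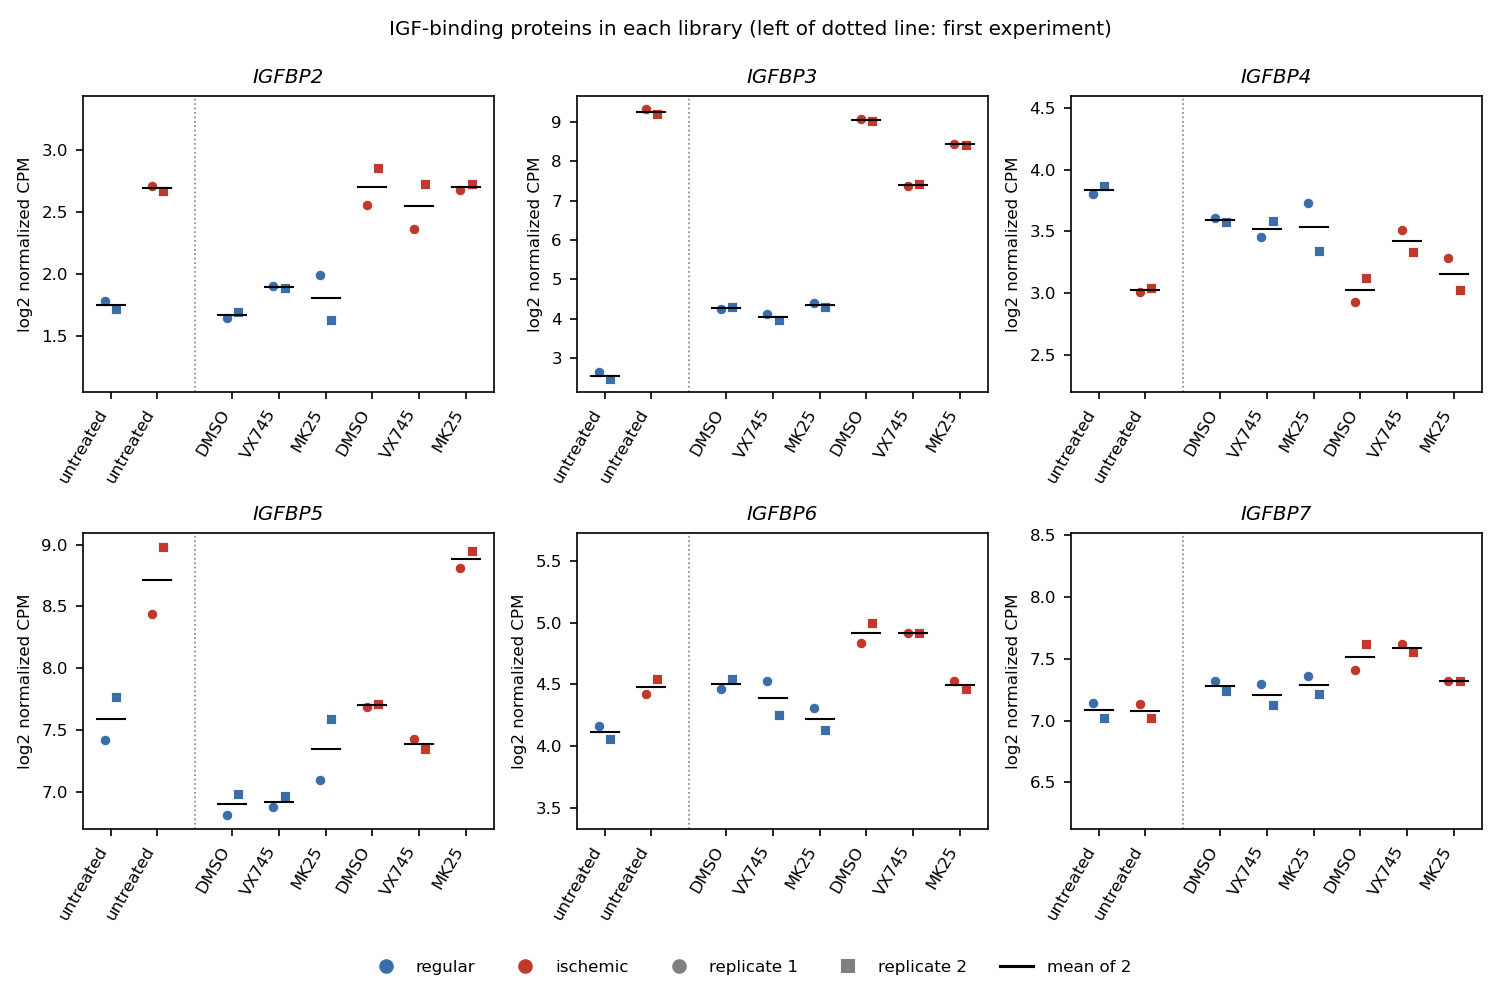
Log2 normalized CPM of the 6 IGF-binding protein genes in each of 16 libraries, by treatment on the x axis, with regular culture in blue, ischemic culture in red and black lines for the mean of 2 libraries. The y axes differ between panels and do not start at 0. IGFBP3 is the gene with the widest span, from 2.47 to 9.32, and IGFBP5 is highest in the ischemic untreated and ischemic MK25 libraries.

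IGFBP5 encodes a binding protein that also attaches to extracellular matrix. In untreated cells it was at 7.42 and 7.77 log2 CPM in regular culture and at 8.44 and 8.98 in ischemic culture. The ranges did not overlap, but both pairs were wide, with standard deviations of 0.25 in regular and 0.38 in ischemic culture. The SE given next leans on the spread of other genes as well. Its log2 fold change was 1.12 (SE 0.15, adjusted p = 2.05e-05), and the call was lost under the 2-fold bound without ischemic replicate 2 (0.85) or without regular replicate 1 (0.94). Under quantile normalization it was 0.95, also short of 2-fold. With DMSO IGFBP5 was lower throughout, at 6.81 and 6.98 log2 CPM in regular and 7.69 and 7.71 in ischemic culture. The log2 fold change was 0.80 (SE 0.11, adjusted p = 3.2e-06), a rise that was not called.

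IGFBP2, the neighbour of IGFBP5 on chromosome 2 at a distance of 7.7 kb, encodes a binding protein known from high-grade gliomas. In the first experiment it was at 1.78 and 1.72 log2 CPM in regular culture and at 2.72 and 2.67 in ischemic culture. With DMSO its level was 1.64 and 1.69 against 2.56 and 2.86. In each experiment both ischemic libraries were above both regular ones. The log2 fold changes were 0.94 (SE 0.16, adjusted p = 0.000184) and 1.04 (SE 0.17, adjusted p = 2.69e-05). The latter was called, and it fell to 0.89 without ischemic_DMSO replicate 2, which ended the call.

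IGFBP4, whose protein is the classic substrate of the protease PAPPA, moved the other way. It was at 3.80 and 3.87 log2 CPM in regular and 3.01 and 3.05 in ischemic culture of untreated cells. The DMSO libraries gave 3.61 and 3.58 against 2.93 and 3.12. The ischemic libraries lay below the regular ones in both experiments. The log2 fold changes were −0.81 (SE 0.12, adjusted p = 5.19e-05) and −0.57 (SE 0.13, adjusted p = 0.00105).

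IGFBP6, which encodes a binding protein that prefers IGF2, rose slightly. It was at 4.16 and 4.06 log2 CPM in regular and 4.42 and 4.54 in ischemic culture, a log2 fold change of 0.37 (SE 0.10, adjusted p = 0.00543). With DMSO the log2 fold change was 0.41 (SE 0.10, adjusted p = 0.00102). IGFBP7 encodes a secreted protein that binds IGFs only weakly. In untreated cells it was at 7.14 and 7.02 log2 CPM in regular and 7.13 and 7.02 in ischemic culture, and these ranges overlapped almost fully. The log2 fold change was −0.01 with a 95% interval from −0.16 to 0.15 (adjusted p = 0.947). With DMSO it was 0.23 (SE 0.07, adjusted p = 0.0109), a rise small enough to depend on how the libraries were scaled.

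Divided by transcript length in kb, levels can be set side by side between genes. In regular culture of untreated cells IGFBP7 led the binding proteins at a mean of 95.1 CPM per kb, with IGFBP5 at 31.1, IGFBP6 at 18.2 and IGFBP4 at 6.43. IGFBP2 (2.32 CPM per kb) and IGFBP3 (2.21) were lowest and overlapped. In ischemic culture IGFBP3 led at 235.3 CPM per kb, above IGFBP7 at 94.7 and IGFBP5 at 68.3. The sum over the 6 genes was 154 and 156 CPM per kb in the regular libraries and 430.0 in both ischemic libraries. The share of IGFBP3 in that sum went from a mean of 1.43% to a mean of 54.7%. With DMSO the sum was 168 and 166 CPM per kb in regular and 396 and 412 in ischemic culture, with an IGFBP3 share of 4.29% to 4.48% and of 48.1% to 52.2%. The binding protein mRNA of these cells was thus mostly IGFBP7 in regular culture, while in ischemic culture without an inhibitor IGFBP3 made up about as much as all the others together.

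**Figure D2:**
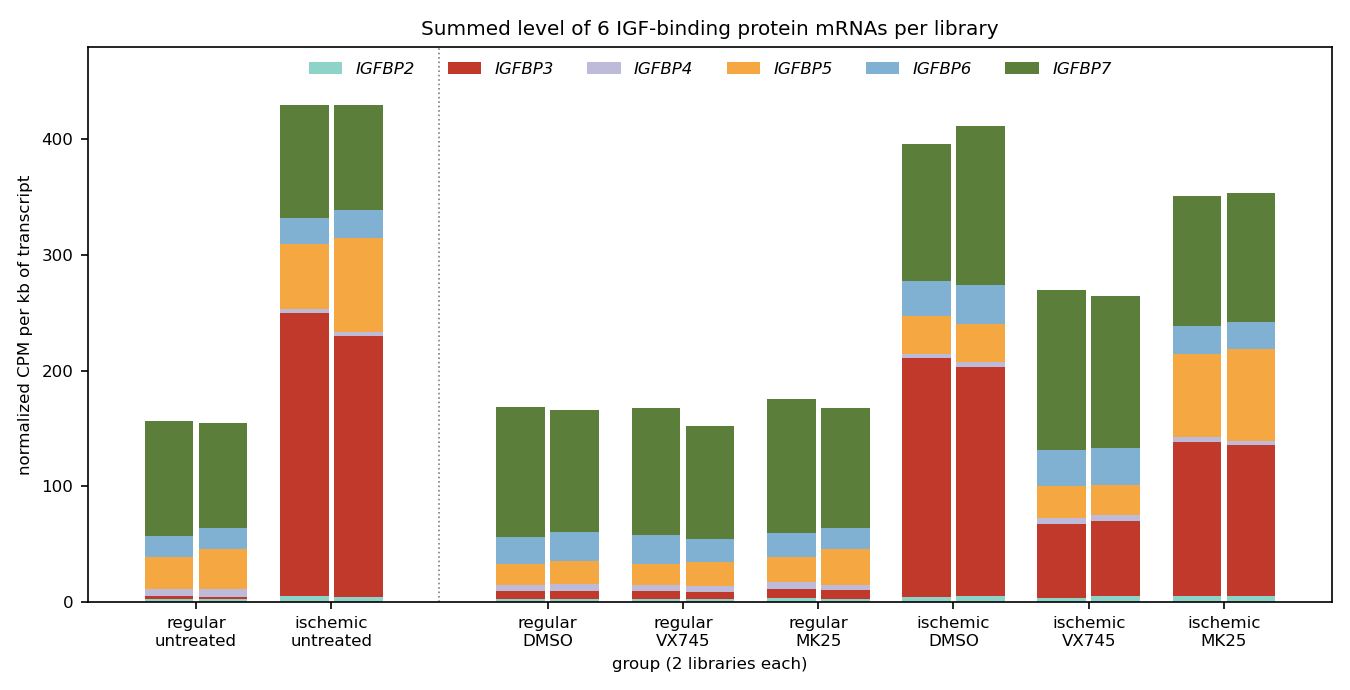
Stacked bars of normalized CPM per kb of transcript for the 6 IGF-binding protein genes, 1 bar per library and 2 per group, with the y axis from 0. The bars reach 152 to 175 in the regular libraries and 264 to 430 in the ischemic ones, where the red part, IGFBP3, takes 23.6% to 57.1%.

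IGF1R, the signaling receptor, was at 6.98 and 7.28 log2 CPM in regular and 7.93 and 8.09 in ischemic culture of untreated cells. In the DMSO libraries it was at 6.92 and 6.96 against 7.82 and 7.78. The ischemic libraries were above the regular ones in both experiments, by similar amounts. The log2 fold changes were 0.88 (SE 0.09, adjusted p = 3.55e-06) and 0.85 (SE 0.06, adjusted p = 2.16e-09), and neither was called.

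IGF2R, the clearance and sorting receptor, was at 7.48 and 7.72 log2 CPM in regular and 8.56 and 8.57 in ischemic culture of untreated cells. With DMSO it was at 7.87 and 7.83 against 8.50 and 8.50. The groups did not overlap. The log2 fold changes were 0.96 (SE 0.08, adjusted p = 4e-07) and 0.65 (SE 0.07, adjusted p = 2.24e-07). Without regular replicate 2 of the first experiment both receptors passed 2-fold, with log2 fold changes of 1.03 for IGF1R and 1.08 for IGF2R. Per kb of transcript, IGF2R stayed above IGF1R in each of the 16 libraries, at 1.18 to 1.68 times its level.

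The IGF2R promoter is shown because it held the most matches to the hypoxia response element core of the 9 genes with a promoter entry. It lies at chr6:159968832-159969081 on the plus strand (RefSeq, GRCh38.p14), before the gene at chr6:159969082-160111504. The capitals mark CACGTG, which is its own reverse complement and so holds ACGTG on each strand.
IGF2R: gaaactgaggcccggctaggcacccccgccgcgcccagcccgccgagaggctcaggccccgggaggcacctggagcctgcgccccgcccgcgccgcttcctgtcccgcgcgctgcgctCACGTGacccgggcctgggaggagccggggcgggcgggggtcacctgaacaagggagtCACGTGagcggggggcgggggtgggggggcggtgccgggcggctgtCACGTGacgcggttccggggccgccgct
These 3 palindromes count as 6 matches, and 0.646% of the promoter windows had at least 6. The window was picked by this count, so the share describes it and is no test. IGF1R had 5 matches, a count that 1.36% of the windows reached or passed. Those 5 lie at separate positions, so with each palindrome counted once IGF1R held more sites than IGF2R. These shares are over windows of all base compositions: G and C made up 79.2% of the IGF2R window and 81.2% of that of IGF1R, beside a median of 58% over all windows, and the core itself is rich in them.

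**Figure D3:**
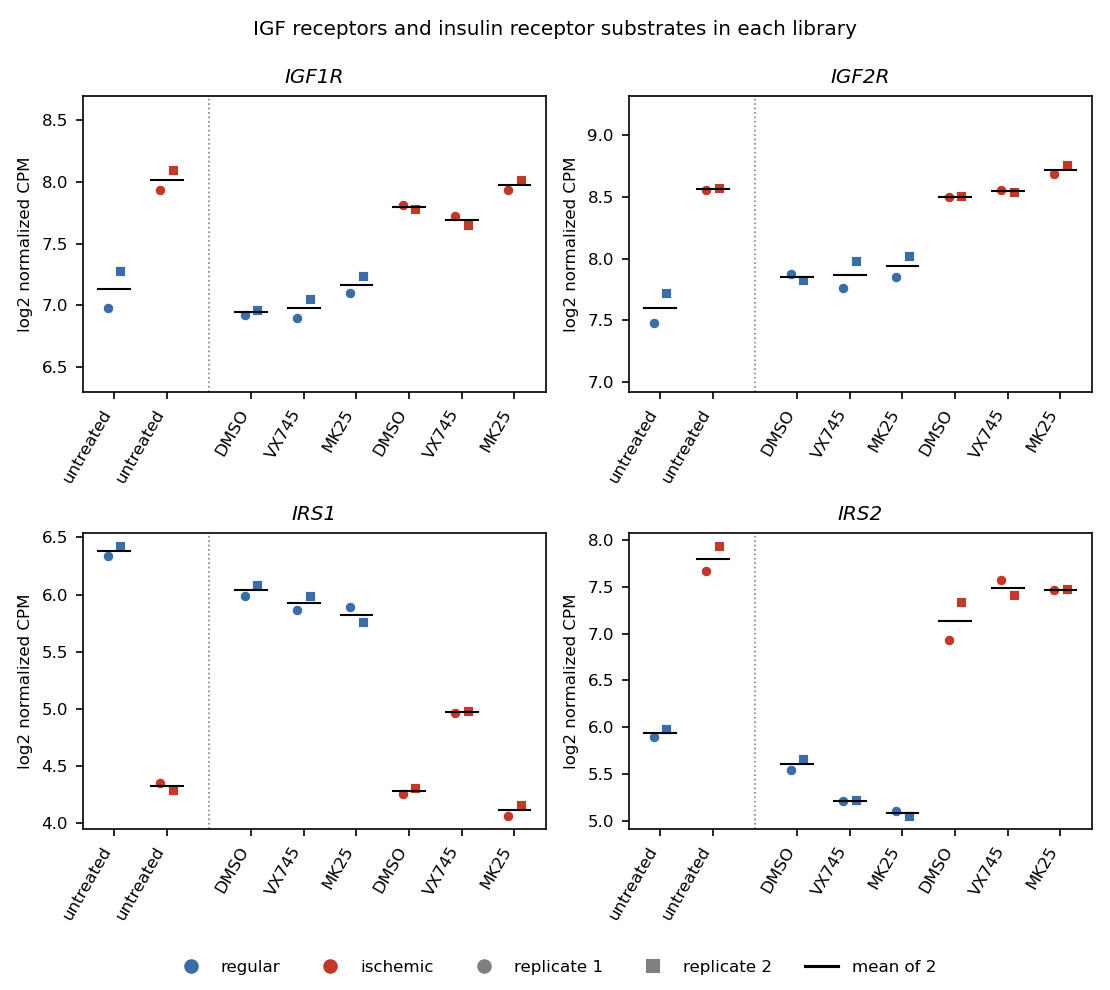
Log2 normalized CPM of IGF1R, IGF2R, IRS1 and IRS2 in each of 16 libraries, by treatment, with regular culture in blue, ischemic culture in red and black lines for the mean of 2 libraries. The y axes do not start at 0. The ischemic libraries are above the regular ones for IGF1R, IGF2R and IRS2 and below them for IRS1, where the VX745 pair (4.96 and 4.98) is the highest of the ischemic libraries.

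IRS1, the docking protein gene on chromosome 2, was at 6.34 and 6.42 log2 CPM in regular and 4.35 and 4.29 in ischemic culture of untreated cells. With DMSO it was at 5.99 and 6.09 against 4.26 and 4.31. The ischemic pair lay well below the regular pair in both experiments. IRS1 fell by 2.06 on the log2 scale in untreated cells (SE 0.08, adjusted p = 5.09e-10), a 4.17-fold difference. With DMSO it fell by 1.76 (SE 0.07, adjusted p = 8.32e-13).

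IRS2, the docking protein gene on chromosome 13, was at 5.89 and 5.98 log2 CPM in regular and 7.66 and 7.93 in ischemic culture of untreated cells. With DMSO it was at 5.54 and 5.66 against 6.93 and 7.34. Here the ischemic libraries were the higher ones, and the ischemic DMSO pair was spread the widest. The log2 fold changes were 1.86 (SE 0.09, adjusted p = 2.34e-09) and 1.53 (SE 0.09, adjusted p = 1.77e-10). Per kb of transcript the level of IRS2 was 0.880 and 0.881 times that of IRS1 in the regular libraries of untreated cells. In the ischemic ones it was 11.96 and 15.1 times as high. With DMSO this ratio was 0.879 and 0.893 in regular and 7.66 and 9.86 in ischemic culture. So IRS1 and IRS2 mRNA were near parity in regular culture, and IRS2 was in large excess in ischemic culture.

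The promoters of both substrate genes are shown because the genes moved in opposite directions. They lie at chr2:226799821-226800070 (IRS1) and chr13:109786584-109786833 (IRS2), both on the minus strand (RefSeq, GRCh38.p14), before the genes at chr2:226731312-226799820 and chr13:109752695-109786583. The capitals mark the same core as above.
IRS1: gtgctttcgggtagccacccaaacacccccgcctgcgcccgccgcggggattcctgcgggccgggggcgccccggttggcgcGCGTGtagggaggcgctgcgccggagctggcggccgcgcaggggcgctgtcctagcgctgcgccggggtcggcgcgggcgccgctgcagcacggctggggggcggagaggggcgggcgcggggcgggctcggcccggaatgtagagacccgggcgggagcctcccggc
IRS2: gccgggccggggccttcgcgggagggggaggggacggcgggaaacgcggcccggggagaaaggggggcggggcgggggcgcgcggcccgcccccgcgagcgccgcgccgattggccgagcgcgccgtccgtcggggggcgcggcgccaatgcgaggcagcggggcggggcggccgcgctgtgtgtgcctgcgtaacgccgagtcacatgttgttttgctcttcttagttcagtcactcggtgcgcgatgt
The falling gene IRS1 held 1 match, beginning 168 bases before its start, and the rising gene IRS2 held 0. Of the 9 genes with an entry, 5 (IGFBP2, IGFBP3, IGF1R, IGF2R and IRS1) held at least 1 match. IGFBP2 had 3 windows, of which 1 held a match, so that 5 of the 11 windows of these genes did, near the 43.2% of all windows. The sequence GTAAACA, bound by FOXO factors, was found in IGFBP6 alone among these genes and in 2.98% of all windows. TGANTCA, the AP-1 site, was found in 0 of the 9 genes and in 6.57% of windows, and TTGCATCA, a composite ATF4 site, in 0 and in 0.772%. Both strands were searched for each, and a window without a match says nothing on binding elsewhere. IGFBP7 had no entry.

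The second question was what p38α or MK2 inhibition does under ischemia. In ischemic culture with VX745, 5 of the 10 genes passed the adjusted p against DMSO, beside 28.9% of all genes, with 3 higher (14% of all genes) and 2 lower (14.9%). Of these IGFBP3 and IRS1 were called (2 genes, beside 5.26% of all genes). With MK25, 7 of the 10 passed, beside 41.7% of all genes, with 4 higher (19.8% of all genes) and 3 lower (22%), and IGFBP3 and IGFBP5 were called (2 genes, beside 9.67%). IGFBP3 was the one gene called with both inhibitors. The inhibitor comparisons share their DMSO libraries.

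IGFBP3 was at 9.08 and 9.02 log2 CPM in the ischemic DMSO libraries, where VX745 gave 7.38 and 7.42 and MK25 gave 8.44 and 8.42. The groups were well apart, with VX745 lowest and MK25 between. IGFBP3 fell by 1.65 on the log2 scale with VX745 (SE 0.06, adjusted p = 4.39e-11), a 3.14-fold difference. With MK25 it fell by 0.62 (SE 0.06, adjusted p = 1.06e-06), a 1.53-fold difference close to the fold bound. That call was lost without ischemic_DMSO replicate 1 (log2 fold change −0.58) and under quantile normalization (−0.42). The inhibited ischemic libraries stayed above regular culture, since the log2 fold change of ischemic against regular culture was 3.35 with VX745 and 4.08 with MK25.

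IGFBP5 was at 7.69 and 7.71 log2 CPM in the ischemic DMSO libraries, while the VX745 pair was at 7.43 and 7.35 and the MK25 pair at 8.82 and 8.95. The MK25 pair stood above all the others. The log2 fold change with MK25 was 1.18 (SE 0.11, adjusted p = 2.41e-07), a 2.27-fold rise. With VX745 it was −0.31 (SE 0.11, adjusted p = 0.0363), a fall that was not called. The MK25 libraries in ischemic culture were thus near the level of the ischemic untreated libraries of the first experiment (8.44 and 8.98), although those were normalized in another table.

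IRS1 was at 4.26 and 4.31 log2 CPM in the ischemic DMSO libraries, while VX745 gave 4.96 and 4.98 and MK25 gave 4.06 and 4.16. The VX745 pair was the higher one, between the DMSO pairs of ischemic and regular culture. The log2 fold change with VX745 was 0.69 (SE 0.07, adjusted p = 4.27e-06), a 1.62-fold rise. With MK25 it was −0.17 with a 95% interval from −0.32 to −0.01, and it did not pass over all genes (adjusted p = 0.0733). IRS2 rose with both inhibitors below the fold bound, with log2 fold changes of 0.35 (SE 0.09, adjusted p = 0.00978) for VX745 and 0.33 (SE 0.09, adjusted p = 0.00954) for MK25. Its libraries were at 6.93 and 7.34 log2 CPM with DMSO, at 7.57 and 7.41 under VX745, and at 7.46 and 7.47 under MK25. The inhibitor pairs lay above the DMSO pair, by little against its higher library.

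**Figure D4:**
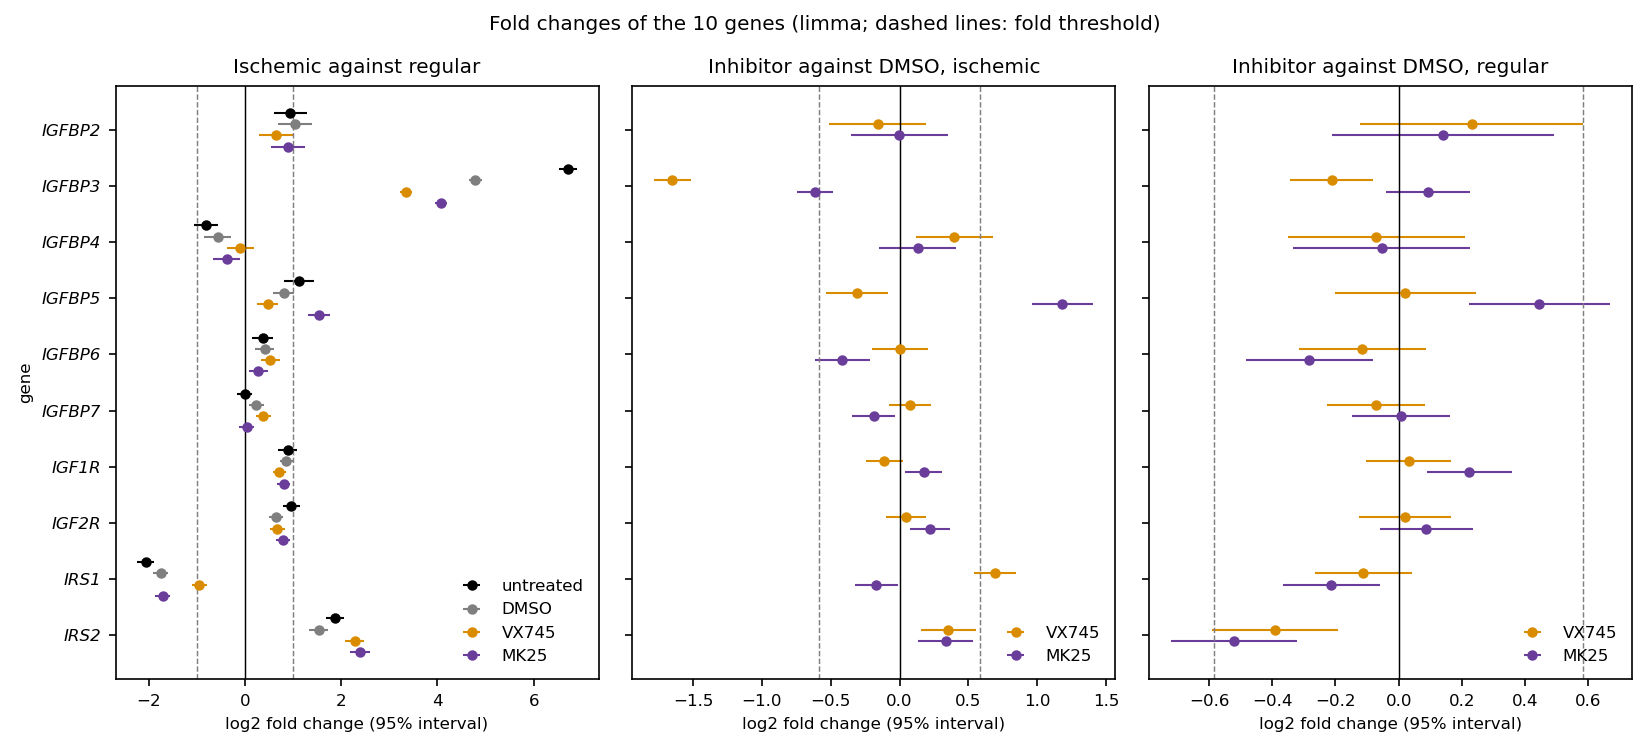
Log2 fold changes of the 10 genes from limma with 95% intervals, for ischemic against regular culture (left), inhibitor against DMSO in ischemic culture (middle) and in regular culture (right). Dashed lines mark the fold bounds, and the x axes differ in scale. IGFBP3 lies farthest to the right on the left panel (3.35 to 6.71), and IGFBP3, IGFBP5 and IRS1 are the genes past the bounds in the middle panel.

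The other genes shifted less in ischemic culture. Against DMSO IGFBP4 rose by 0.40 on the log2 scale with VX745 (adjusted p = 0.0328), while with MK25 its log2 fold change was 0.13, from −0.15 to 0.41. IGFBP6 fell by 0.42 with MK25 (adjusted p = 0.00221), and IGFBP7 fell by 0.19 (adjusted p = 0.0482). The receptors rose slightly with MK25, IGF2R by 0.22 (adjusted p = 0.0177) and IGF1R by 0.18 (adjusted p = 0.0344) on the log2 scale. With VX745 the log2 fold changes of IGFBP6 (0.00), IGFBP7 (0.08), IGF2R (0.05) and IGF1R (−0.11) did not pass. IGFBP2 did not pass with either, at log2 fold changes of −0.16 (95% interval −0.51 to 0.19) for VX745 and −0.00 (−0.36 to 0.35) for MK25. Summed over the 6 binding protein genes, the level was 264 and 269 CPM per kb in the ischemic VX745 libraries and 351 and 354 in the MK25 libraries, all below the 396 and 412 with DMSO. The IGFBP3 share was 23.6% to 24.8% with VX745, and IGFBP7 led there at 134.7 CPM per kb. With MK25 the IGFBP3 share was 37.04% to 38.01%, and that of IGFBP5 was 20.6% to 22.4%, beside 8.14% to 8.35% with DMSO.

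The inhibitors were also compared with each other in ischemic culture, at concentrations that the study's methods list as unequal. Of the 10 genes 6 passed the adjusted p, beside 18.4% of all genes, and 3 were called, beside 3.96%. With MK25 IGFBP5 was higher by 1.49 (SE 0.11, adjusted p = 2.24e-08) and IGFBP3 by 1.03 (SE 0.06, adjusted p = 4.08e-09) on the log2 scale. IRS1 was lower by a log2 fold change of −0.86 (SE 0.07, adjusted p = 2.02e-07). The difference for IRS2 was −0.02, with a 95% interval from −0.22 to 0.18.

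In regular culture with VX745, 0 of the 10 genes passed the adjusted p in limma, beside 0.335% of all genes, and 0 passed with voom on the recovered reads. At an unadjusted p under 0.05 there were 2, IRS2 (log2 fold change −0.39) and IGFBP3 (−0.21). With MK25, 3 of the 10 passed, beside 12.2% of all genes, and 0 were called, beside 2.49%. IRS2 was at 5.54 and 5.66 log2 CPM with DMSO and at 5.11 and 5.05 with MK25, a pair below both DMSO libraries. It fell by 0.52 on the log2 scale (SE 0.09, adjusted p = 0.00149). IGFBP5 rose by 0.45 (SE 0.11, adjusted p = 0.0112), with MK25 libraries at 7.10 and 7.59 log2 CPM that lay far apart. Without regular_MK25 replicate 1 its log2 fold change was 0.69 and was called. IGF1R rose by 0.22 (adjusted p = 0.0296). Between the inhibitors in regular culture, 2 of the 10 genes passed, beside 5.39% of all genes, and 0 were called, beside 1.46%. They were IGFBP3, higher with MK25 by 0.30 (adjusted p = 0.00598), and IGFBP5, higher by 0.42 (adjusted p = 0.0238) on the log2 scale. With voom on the recovered reads only IGFBP5 passed, and IGFBP3 did not (adjusted p = 0.0764). The difference for IGFBP5 was 0.67 and called without regular_MK25 replicate 1.

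Whether an inhibitor acted differently in the 2 cultures was tested by the interaction of inhibitor and culture, at any fold. For VX745, 3 of the 10 genes passed, beside 11.8% of all genes. The difference between its log2 fold changes in ischemic and in regular culture was −1.44 for IGFBP3 (SE 0.09, adjusted p = 1.23e-07), 0.81 for IRS1 (SE 0.10, adjusted p = 0.000218) and 0.74 for IRS2 (SE 0.13, adjusted p = 0.00264). For MK25, 3 passed, beside 24.4% of all genes. They were IGFBP3 at −0.71 (SE 0.09, adjusted p = 3.03e-05), IGFBP5 at 0.74 (SE 0.15, adjusted p = 0.0019) and IRS2 at 0.85 (SE 0.13, adjusted p = 0.000241). IRS2 was lower than DMSO in regular culture and higher in ischemic culture with MK25. The change of IRS2 with ischemia was accordingly wider with the inhibitors, at log2 fold changes of 2.28 with VX745 and 2.39 with MK25 beside 1.53 with DMSO. For IRS1 it was narrower with VX745, at −0.95 beside −1.76 with DMSO, just short of 2-fold, and it was −1.01 and called without regular_VX745 replicate 1. With MK25 it was −1.71. Within the VX745 libraries, 9 of the 10 genes passed the adjusted p for ischemic against regular culture, beside 66.6% of all genes, and 2 (IGFBP3 and IRS2) were called, beside 14.5%. Within the MK25 libraries 9 passed, beside 67.2%, and 4 (IGFBP3, IGFBP5, IRS1 and IRS2) were called, beside 13.9%. There IGFBP2 was at 0.90 on the log2 scale, and at 1.08 and called without regular_MK25 replicate 1.

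The order of levels per kb among the 10 genes also depended on the culture. With DMSO in regular culture the order was IGFBP7 (109.1 CPM per kb), IGFBP6 (23.9), IGFBP5 (19.2), IGF2R (16.4), IGF1R (10.1), IGFBP3 (7.33), IRS1 (6.72), IRS2 (5.95), IGFBP4 (5.44) and IGFBP2 (2.20). No neighbours in that order overlapped. In ischemic culture it was IGFBP3 (202.6 CPM per kb), IGFBP7 (128.1), IGFBP5 (33.3), IGFBP6 (31.8), IGF2R (25.7), IGF1R (18.2), IRS2 (17.4), IGFBP2 (4.596), IGFBP4 (3.67) and IRS1 (1.98). The libraries of IGFBP5 and IGFBP6 overlapped there, and so did those of IGF1R and IRS2.

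The other genes of the pathway were taken from 10 lists that name 76 genes, from ligands to AKT targets and mannose 6-phosphate sorting. Of these 67 were listed in the first table and 66 in the second. The ligand genes IGF1, IGF2 and INS were not among the listed genes of either table. With DMSO, 28 of 66 rose in ischemic culture, beside 34.4% of all genes, and 24 fell, beside 35.2%. Of the 66, 12 were called, 9 higher and 3 lower. The called genes were 18.2% of the listed ones, close to the 17.1% called among all genes. In untreated cells 35 of 67 rose, beside 35.2% of all genes, and 22 fell, beside 35.2%. There 19 were called, 16 higher and 3 lower, which was 28.4% beside 20.4% of all genes. IGFBP1, which may be listed only through its ischemic libraries, is among the 16. The median log2 fold change over the lists was 0.06 with DMSO and 0.23 in untreated cells, beside −0.01 over all genes in each.

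All 5 genes of the list of IGFBP proteolysis rose in both experiments, beside 34.4% of all genes with DMSO and 35.2% in untreated cells. PAPPA2, a protease that cuts IGFBP3 and IGFBP5, was at 1.64 and 1.15 log2 CPM with DMSO in regular and 6.09 and 5.96 in ischemic culture, a log2 fold change of 4.63 (SE 0.13, adjusted p = 4.3e-15). STC1 and STC2 encode stanniocalcins, which inhibit the PAPPA proteases, and their log2 fold changes were 3.67 and 3.30 with DMSO and 5.46 and 4.29 in untreated cells. PAPPA rose by 0.88 with DMSO and by 1.19 in untreated cells, and HTRA1 by 0.30 and 0.43. The list therefore held a rising protease and its rising inhibitors. With MK25 in regular culture 4 of the 66 genes of all lists were called, a share of 6.06% beside 2.49% of all genes. STC1 (1.40), STC2 (0.70) and PAPPA2 (0.63) were called higher on the log2 scale. The receptor adaptor gene CRK was called lower, at a mean of 2.21 log2 CPM beside 3.42 with DMSO. In ischemic culture 0 of the 5 proteolysis genes were called with either inhibitor, beside 5.26% of all genes with VX745 and 9.67% with MK25. By the adjusted p alone 1 of the 5 fell with VX745, beside 14.9% of all genes. With MK25 1 rose, beside 19.8%, and 2 fell, beside 22%. In the interaction of MK25 with culture 4 of the 5 passed, all of them negative, beside 24.4% of all genes in either direction.

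**Figure D5:**
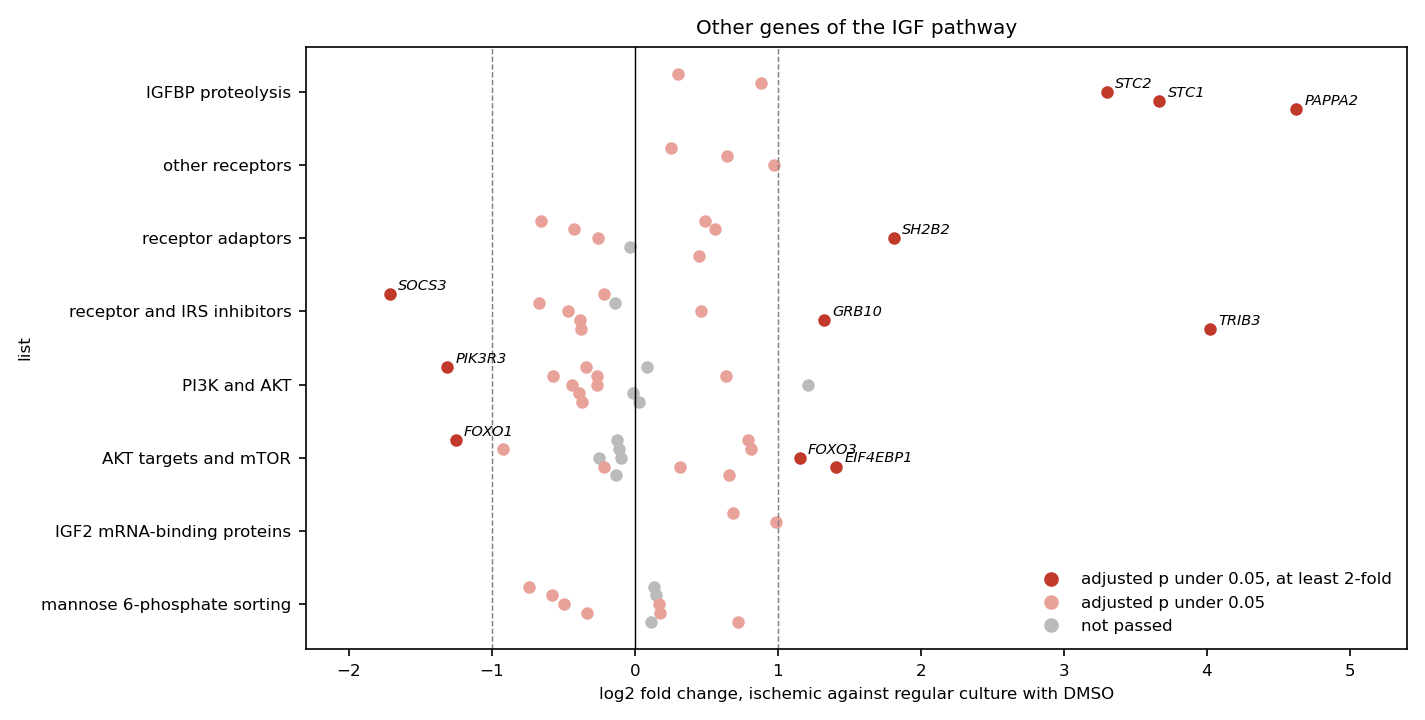
Log2 fold change of other genes of the IGF pathway in ischemic against regular culture with DMSO, by list, with dashed lines at 2-fold and 1 gene not drawn. The called genes are in dark red and named, with PAPPA2 (4.63), TRIB3 (4.02), STC1 (3.67) and STC2 (3.30) farthest to the right and SOCS3 (−1.71) farthest to the left.

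The counts of each list with DMSO stand beside 34.4% of all genes that rose and 35.2% that fell. Of 10 genes for inhibitors of the receptors and their substrates, 3 rose and 6 fell with DMSO. TRIB3, which binds AKT, had a log2 fold change of 4.02, GRB10, which binds the activated receptors, had 1.32, and SOCS3, which targets IRS proteins for breakdown, had −1.71. In untreated cells these values were 4.15, 1.66 and −2.82. Of 3 genes for other receptors all rose, with the insulin receptor gene INSR at log2 fold changes of 0.64 with DMSO and 1.03 in untreated cells. Of 14 genes for phosphoinositide 3-kinase and AKT signaling 2 rose and 8 fell with DMSO, among them the regulatory subunit gene PIK3R3 (−1.31). Of 14 genes for AKT targets and mTOR 6 rose and 3 fell, and the called ones were EIF4EBP1 (1.41), FOXO3 (1.15) and FOXO1 (−1.25). Of 8 receptor adaptor genes 4 rose and 3 fell, with SH2B2 at 1.81. Of 10 sorting genes 3 rose and 4 fell, with 0 called, beside 17.1% of all genes. Both listed genes for IGF2 mRNA-binding proteins rose. With VX745 in ischemic culture 9 of 66 genes rose, beside 14% of all genes, and 9 fell, beside 14.9%. Of the 66, 0 were called, beside 5.26% of all genes (0 also with voom, and 27 had an unadjusted p under 0.05). With MK25, 20 rose, beside 19.8% of all genes, and 13 fell, beside 22%. Of the 66, 3 were called, a share of 4.55% beside 9.67% of all genes. They were LRP1 (0.69) and FOXO4 (0.62), higher, and SOCS2 (−0.68), lower.

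Genes with patterns most like those of the genes above were sought among 10053 genes, by the root mean square difference of log2 values over the 12 libraries of the second experiment after centring each gene. For IGFBP3 the nearest were PTGS2, encoding cyclooxygenase-2 (difference 0.40, r = 0.989), and GDF15, a stress-induced secreted factor (0.41, r = 0.988). For IGFBP5 the nearest were FOS, an AP-1 subunit (0.18, r = 0.969), and TENM1 (0.20, r = 0.955). For IRS1 they were ENC1 (0.17, r = 0.977) and TLR4 (0.18, r = 0.976), and for IRS2 ARHGAP33 (0.20, r = 0.987) and VPS37D (0.20, r = 0.987). The libraries of 6 groups make up these points, so the correlations describe shared group differences and carry no test.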

How the data were processed

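RNA of LN229 cells was sequenced in 16 libraries, 2 per group, from SMART-Seq libraries read as pairs on an Illumina instrument. Per the study's methods and the labels, the authors trimmed the reads and aligned them to GRCh38 with HISAT2 in Galaxy, and used edgeR. The gene counter and tool versions are not given in the sources used here. The authors deposited log2 CPM values per library in 1 table per experiment, normalized separately, with Entrez identifiers. The RefSeq gene table of GRCh38.p14 gave symbols for 99.4% and 99.3% of them, and MANE Select transcripts of GENCODE release 44 gave lengths.

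The log2 values were tested as deposited, with no pseudocount or further filter. Undoing the logarithm gave whole reads for 100% of values in each library (within 0.01 reads), and 20122017 to 37562668 reads lay on listed genes. A count of 3 reads corresponds to log2 values of −2.71 to −2.16. Reads are not independent molecules, so read counts cover counting error only.

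limma (version 3.58.1, R 4.3.3) fitted 1 mean per group over all genes of a table, with a variance trend. The variance of each gene was drawn toward this trend by empirical Bayes, so an SE does not rest on the gene's own libraries alone. Tests were two-sided, with Benjamini-Hochberg adjustment over every gene tested in a comparison. The edgeR test of the study's methods was not run, and voom on the recovered reads served as the test based on counts. The script was tested on simulated data. Genes past an adjusted p of 0.05 and a 2-fold change (1.5-fold for inhibitors, any fold for interactions) were called. The text names the 10 genes in every comparison and genes of the nearest pattern. It also names list genes called for ischemia with DMSO or for an inhibitor against DMSO. List genes called in the other comparisons are named only in part and otherwise enter the counts alone. HTRA1, and PAPPA and INSR with DMSO, fall outside that rule and were named after their values were seen. The genes and lists were chosen with earlier results of these data known. Alternatives were quantile normalization, a mean of at least 1 CPM, voom on the recovered reads, a replicate block, and leaving out each library. Of the list genes, 1 enters the counts and is not reported here, by name or in the figure.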

Additional observations from a re-analysis of the deposited data

Results flagged for a closer look

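The flagged results are genes whose response to an inhibitor differed between ischemic and regular culture by limma's interaction test with Benjamini-Hochberg adjustment. With VX745 3 of the 10 passed, beside 11.8% of all genes, and with MK25 3 passed, beside 24.4%. The difference of the log2 fold changes, ischemic minus regular, was −1.438 for IGFBP3 with VX745 (adjusted p = 1.23e-07) and −0.7084 with MK25 (adjusted p = 3.03e-05). For IRS2 it was 0.7448 with VX745 (adjusted p = 0.00264) and 0.8545 with MK25 (adjusted p = 0.000241). It was 0.8051 for IRS1 with VX745 (adjusted p = 0.000218) and 0.738 for IGFBP5 with MK25 (adjusted p = 0.0019). In both ischemic libraries of each inhibitor IGFBP3 was below both DMSO libraries. In regular culture its log2 fold changes against DMSO did not pass in limma. They were −0.21 with VX745 (adjusted p = 0.138) and 0.09 with MK25 (adjusted p = 0.361). Groups of 2 libraries were too small for a search for outlying libraries.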

How the results depend on the processing

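Over 120 fold changes of the 10 genes, 1040 values came from alternative settings: 1027 kept their side of the call, 6 lost it, 7 gained it, and 0 called and 43 uncalled values changed sign. The filter on mean CPM, voom and the replicate block changed 0 calls. Quantile normalization lowered the calls of MK25 against DMSO in ischemic culture from 2 to 1, and IGF2R passed the MK25 interaction there (0.28, adjusted p = 0.0493). Leaving out each library gave 3 to 6 calls for ischemia in untreated cells, 3 to 4 with DMSO, 2 to 3 with VX745 and 4 to 5 with MK25. For inhibitors against DMSO it gave 2 to 2 (VX745) and 1 to 2 (MK25) in ischemic culture, and 0 to 0 and 0 to 1 in regular culture. For MK25 against VX745 it gave 3 to 3 in ischemic and 0 to 1 in regular culture, and 3 to 3 for each interaction. A group left with 1 library was assumed to vary like the others. The causes were not tested. With quantile normalization the share of higher genes among all called ones went from 82.8% to 62.6% for VX745 and from 72.6% to 56.4% for MK25 in ischemic culture, and from 64.3% to 50% of 14 genes for VX745 in regular culture. Same-numbered libraries of different groups correlated in their deviations at −0.104 to 0.178 over 15 group pairs in the second experiment (2 over 0.1). In the first experiment the correlation was 0.185. With 2 libraries per group these values cannot show whether same-numbered libraries were prepared together. With the replicate block the counts of calls were the same, such as 4 for ischemia with DMSO. Depth limits IGFBP2 most, with 69 to 234 reads.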

Other observations

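IGFBP1, the gene next to IGFBP3 on chromosome 7 at a distance of 18.6 kb, was listed in the first table and not analysed in the second. It had 58 and 33 reads in the ischemic libraries of untreated cells and 4 and 2 reads in the regular ones. With so few regular reads, IGFBP1 may have been listed only through its ischemic libraries. A rise could then have been fixed in advance, so no test of it is given. It was at 1.13 and 0.71 log2 CPM in ischemic culture. On chromosome 2, IGFBP2 and IGFBP5 lie 7.7 kb apart on opposite strands and both rose in ischemic culture, while with MK25 in ischemic culture IGFBP5 rose and IGFBP2 had a log2 fold change of −0.00 (95% interval −0.36 to 0.35).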
